A study of Arabidopsis thaliana with 16 samples.

Results

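The response of Arabidopsis thaliana roots to the synthetic auxin NAA was measured while protein synthesis was blocked with cycloheximide (CHX). The comparison took 8 of the 16 arrays of the series: NAA+CHX and NAA+DEX+CHX roots (2 arrays each) against CHX and DEX+CHX roots (2 arrays each). The groups were defined by treatment, and the NAA effect was taken within each state of dexamethasone (DEX) and then averaged. The other 8 arrays held the same comparison without CHX, NAA and NAA+DEX roots against mock and DEX roots, again with 2 arrays each. All roots came from seedlings aged 5 days and grown on MS agar in continuous light, and treatment lasted 4 h. NAA was given at 1 µM, CHX at 10 µM and DEX at 2 µM, and mock roots received the solvent DMSO. All plants, controls included, had the genotype gLBD16:GR in the triple mutant lbd16-1 lbd18-1 lbd33-1. They therefore carried a fusion of the transcription factor LBD16 to the glucocorticoid receptor, driven by the regulatory region of LBD16 itself, and DEX lets such a fusion enter the nucleus. No roots without the fusion and none with intact LBD16, LBD18 and LBD33 genes were compared. The submitters describe the 2 arrays of a treatment as independent RNA sets. How many roots went into each is not given in the labels, so the p-values here cover only the spread among these samples.

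Auxin acts in large part by bringing Aux/IAA repressor proteins to their degradation, which frees auxin response factors (ARFs) that are already present to change transcription. Genes that answer auxin without new protein are for this reason called primary or early response genes, among them the Aux/IAA genes themselves, the auxin-conjugating GH3 enzymes and several LOB-domain (LBD) genes. CHX stops translation, so short-lived repressors are no longer replaced and many short-lived transcripts are known to accumulate. CHX alone is therefore the control here, and the level of a gene in CHX roots is the baseline that NAA acts on.

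Array medians lay between 179.2 and 189.2 on the 8 arrays with CHX and between 150.9 and 174.7 on the 8 without it. The 2 arrays of a group differed from each other by an SD of 0.38 to 0.40 on the log2 scale in the 4 groups with CHX, and of 0.39 to 0.46 in the other 4. For actin, the ratio of the 3' to the 5' control probe set, which reflects RNA integrity and labelling, was 11.07 to 14.96 on the 4 arrays with NAA and CHX and 15.81 to 23.46 on the 4 with CHX and no NAA. These ranges did not overlap, and the ratio was 17.58 to 26.3 on the arrays without CHX. For ubiquitin the ratio was 2.861 to 3.696 with NAA and CHX against 2.295 to 2.934 with CHX and no NAA, and for GAPDH it was 1.045 to 1.386 against 1.163 to 1.565. The part of these ratios in the NAA effect with CHX was not tested. Of the markers listed for root tissue 4 were measured (AGL21, EXPA7, EXPA18 and SCN1). Their summed intensity was 2823 to 3119 with NAA and CHX, 3456 to 3701 with CHX and no NAA, and 4554 to 6329 without CHX. The 5 measured markers of photosynthetic shoot cells summed to 606 to 847 with NAA and CHX, against 812 to 898 with CHX and no NAA.

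With CHX present few probe sets passed the test for an NAA effect, and most of their changes were under 2-fold. Of 22746 probe sets, 824 (3.62%) passed the test, which was limma's moderated test with Benjamini-Hochberg adjusted p under 0.05. In the same test 4056 had an unadjusted p under 0.05, against 9011 without CHX, so the calls need not hold every transcript that changed. The 824 calls were 422 rises (1.86%) and 402 falls (1.77%). Their median change was 0.68 for the rises and -0.62 for the falls on the log2 scale. At least a 2-fold change was reached by 71 rises and 42 falls, at least a 4-fold change by 2 rises and 0 falls, and an 8-fold change by none. In roots without CHX the same treatment changed 6937 probe sets (30.5%), with 4161 rises (18.3%) and 2776 falls (12.2%). Of those, 685 rises and 739 falls were at least 2-fold, and 57 rises and 27 falls were at least 8-fold. Over all probe sets the median NAA effect was 0.01 with CHX and 0.07 without it. With each array centred on its median the calls without CHX split into 2936 rises and 3577 falls instead, since that scaling lowered the median by 0.11.

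The number of calls with CHX fell whichever of the 8 arrays was left out. It was 304 without CHX replicate 2, 345 without NAA+CHX replicate 2, 351 without DEX+CHX replicate 2 and 417 and 446 without NAA+DEX+CHX replicates 1 and 2. It was 440 without DEX+CHX replicate 1, 458 without NAA+CHX replicate 1 and 660 without CHX replicate 1. The direction was shared by both DEX states for 420 of the 422 rises and 400 of the 402 falls, and within each state the arrays did not overlap for 404 of the rises and 382 of the falls. Such separation upward and downward was found in 10% and 9.47% of all probe sets. The calls were made on the mean of both states from these same arrays, so these counts describe the calls and support nothing further. Whether a lower signal reflects fewer cells of a type or less RNA per cell cannot be told apart in whole roots.

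**Figure D1:**
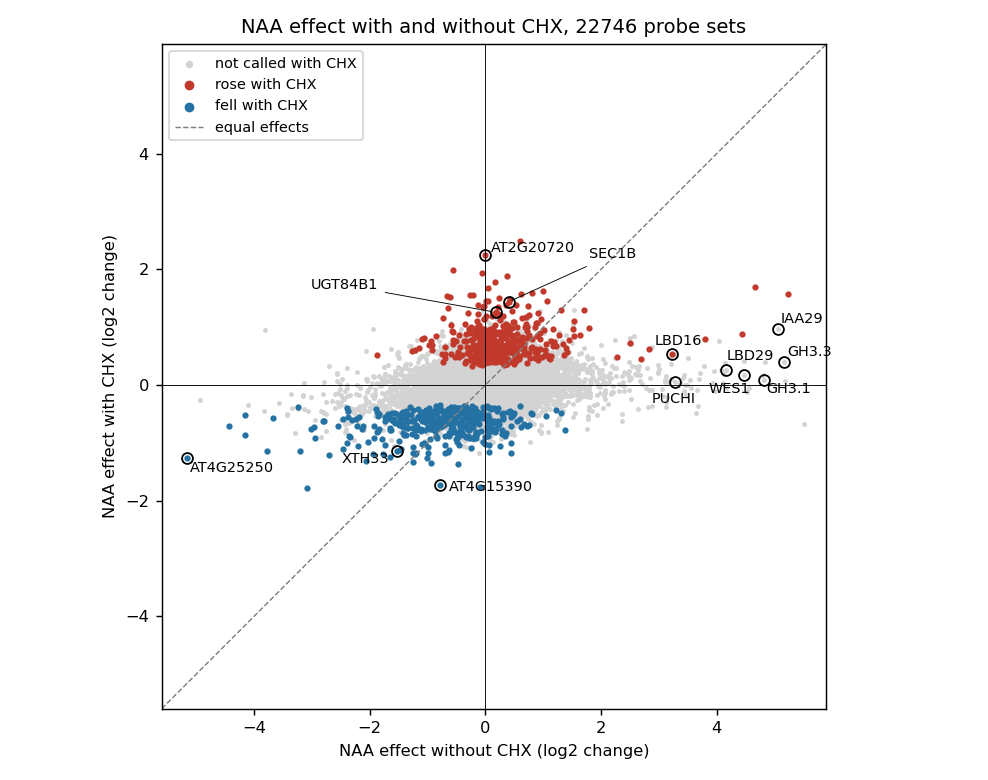
Each point is 1 of 22746 probe sets, with its NAA effect without CHX on the horizontal axis and with CHX on the vertical axis, both as log2 changes averaged over the DEX states. Red and blue points rose or fell with CHX, and the auxin genes GH3.3, GH3.1, IAA29, WES1 and LBD29 lie far to the right at 0.41, 0.09, 0.97, 0.25 and 0.18 on the vertical axis, below the dashed line of equal effects.

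Of the measured GH3, Aux/IAA, LBD and HD-ZIP genes, LBD16 alone passed the test with CHX. Measured were 5 of 11 GH3, 7 of 35 Aux/IAA and 2 of 42 LBD genes in the reference table. Of the HD-ZIP and other auxin-induced transcription factors, 1 of 31 was measured. The other members had no probe set assigned to them alone, so these counts do not describe the families as a whole. GH3 enzymes conjugate auxin to amino acids and so lower the free hormone. GH3.3 had intensities of 10657 and 12340.2 in NAA+CHX and 12082 and 9662 in NAA+DEX+CHX roots, against 6757 and 10244 in CHX and 8289 and 8647 in DEX+CHX roots. Within each DEX state the arrays with NAA were higher, but the ranges over both states overlapped, and the NAA effect was 0.41 (SE 0.17, adjusted p = 0.23). Without CHX the intensities were 21444 and 20511 in NAA and 20774 and 20744 in NAA+DEX roots, against 603 and 845 in mock and 528 and 369 in DEX roots, a 36.1-fold rise. Fold changes here and below come from log2(intensity + 16) and understate the change of low genes. The difference between the NAA effects with and without CHX, tested as an NAA by CHX interaction in limma, was -4.77 (SE 0.23, adjusted p = 4.4e-07).

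GH3.3 was thus already high in roots that had received CHX and no NAA. The CHX effect in the absence of NAA was 3.86 (adjusted p = 2.7e-09), and the mean of 8484 ± 1431 in CHX and DEX+CHX roots stood against 586 ± 198 in mock and DEX roots (SD over both DEX states, n = 4, here and below). The interaction and the CHX effect use the same CHX arrays as the NAA effect, so the values are given side by side. GH3.1 was, by its means, higher with CHX and no NAA than with NAA and no CHX. It averaged 3378 ± 262 with NAA and CHX and 3192 ± 503 with CHX and no NAA, against 2663 ± 1338 with NAA alone or with DEX and 72.2 ± 24 in mock and DEX roots. Its NAA effect was 0.09 (SE 0.14, adjusted p = 0.79) with CHX and 4.82 (SE 0.14, adjusted p = 2.2e-09) without it, and CHX without NAA raised it by 5.21 (adjusted p = 4.8e-11).

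WES1 (GH3.5) differed from these GH3 genes in its level under CHX. Its mean with NAA and CHX was 2357 ± 765, against 1982 ± 678 with CHX and no NAA, while NAA without CHX gave 12005 ± 951 against 658 ± 50.9 in mock and DEX roots. The NAA effect was 0.25 (SE 0.08, adjusted p = 0.13) with CHX and 4.16 without it. The arrays of WES1 did not overlap within either DEX state, yet the difference did not pass the test. The other measured members, GH3.9 and GH3.17, gave 0.17 and -0.30 with CHX and 0.29 and 0.02 without it. In all, 0 of 5 GH3 genes passed with CHX, where 3.62% of all probe sets did, and 3 of 5 rose without it, where 18.3% of all did.

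**Figure D2:**
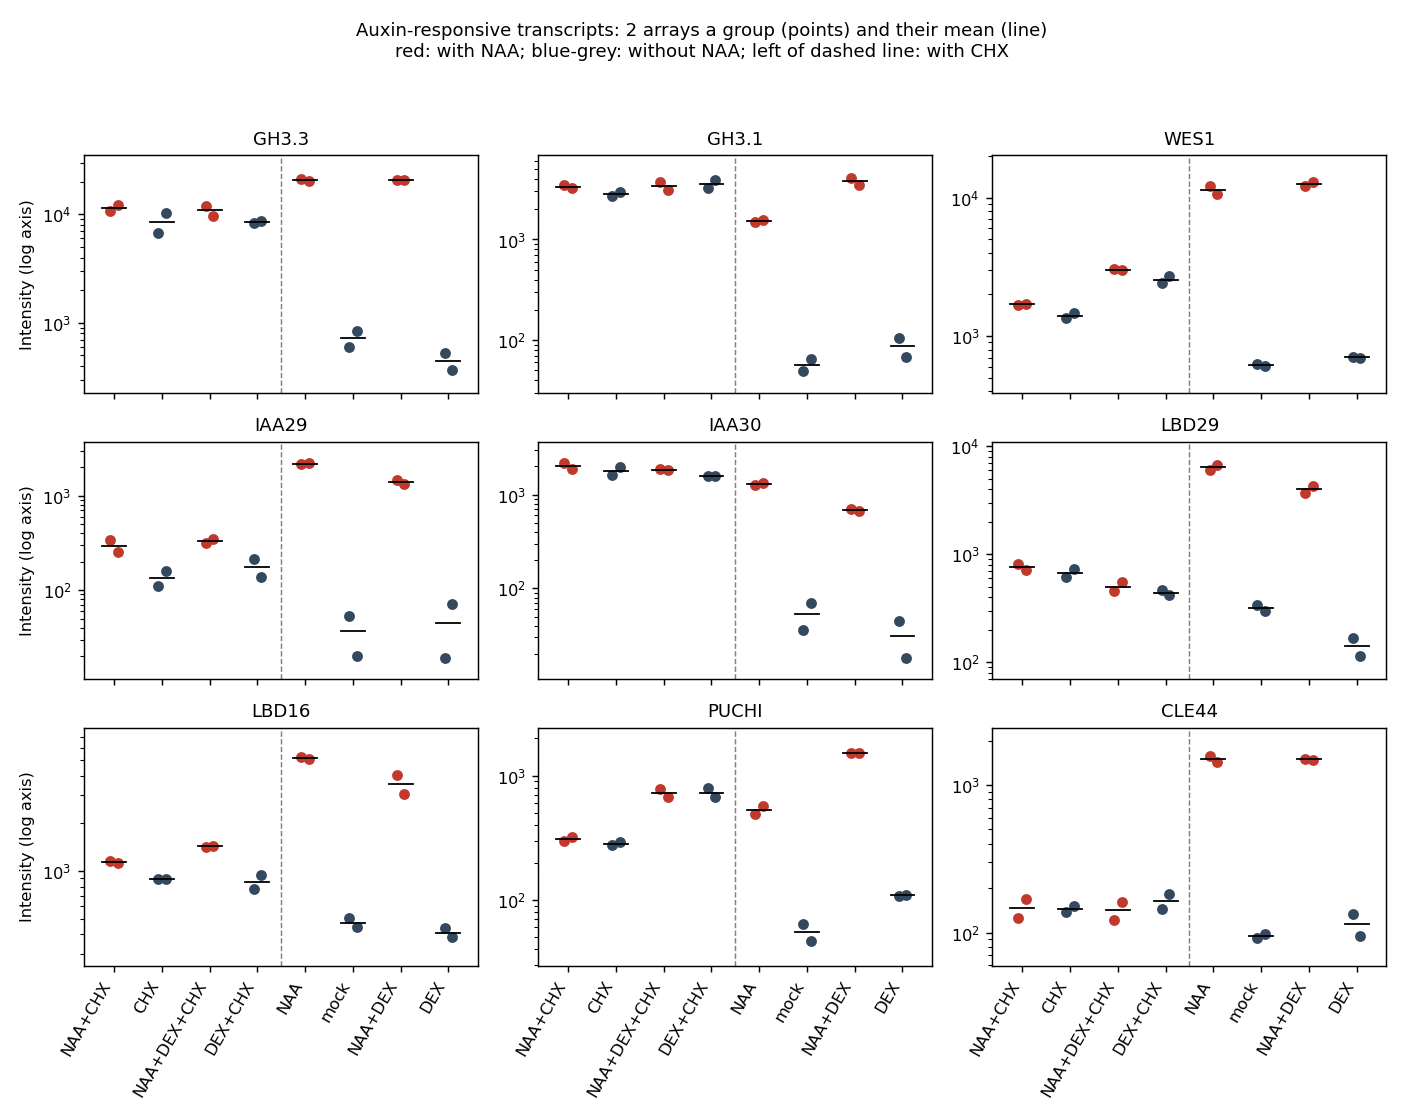
Intensity of 9 auxin-responsive transcripts on all 16 arrays (log axis), by treatment group, with groups that received CHX left of the dashed line, red points for NAA and lines for the mean of 2 arrays. Right of the line the red and blue-grey points are far apart, as for GH3.3 at 20511 to 21444 against 369 to 845, and left of it they are close, at 9662 to 12340.2 against 6757 to 10244.

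Aux/IAA genes encode a family of repressors, many but not all of which auxin removes, and 7 of 35 were measured. With CHX 0 of 7 passed the test, beside 3.62% of all probe sets, although all 7 had positive values with a median of 0.53, against a median of 0.01 over all probe sets. IAA29 had the largest value. It had intensities of 339 and 254 in NAA+CHX and 313 and 351 in NAA+DEX+CHX roots, against 112 and 158 in CHX and 216 and 137 in DEX+CHX roots. Every array with NAA was above every array without it, and the change was 0.97 (SE 0.29, adjusted p = 0.094). Without CHX IAA29 averaged 1785 ± 466 with NAA against 40.8 ± 25.6 without it, a change of 5.06, and the interaction was -4.09 (SE 0.40, adjusted p = 7.1e-05).

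IAA20 and IAA30 are among the members of the family that lack the degron through which auxin acts. IAA20 measured 193 to 213 with NAA and CHX and 116 to 169 with CHX and no NAA, ranges that did not overlap, and its change of 0.58 (SE 0.16, adjusted p = 0.071) missed the threshold. IAA30 was at 1924 ± 153 with NAA and CHX and 1677 ± 190.00 with CHX and no NAA, against 991 ± 354 with NAA and 42.1 ± 21.6 without NAA in the absence of CHX. Like GH3.1 it was, by its means, higher with CHX and no NAA than with NAA and no CHX, and its NAA effect with CHX was 0.20 (SE 0.19, adjusted p = 0.65). IAA18 gave 0.04 with CHX and 1.83 without it, but its CHX effect without NAA did not pass the test (0.26, adjusted p = 0.18). IAA33 ran in opposite directions, with 0.57 (SE 0.22, adjusted p = 0.2) with CHX and -1.52 (SE 0.22, adjusted p = 0.00039) without it, and the interaction of 2.09 passed (adjusted p = 0.0012). Over the list, 4 of 7 rose and 1 fell without CHX, against 18.3% and 12.2% of all probe sets.

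LBD16 and LBD29 are LOB-domain transcription factors that act early in lateral root formation. LBD16 was the 1 of 4 measured genes of the lateral root list that rose with CHX, against 1.86% of all probe sets. Its intensities were 1157 and 1127 in NAA+CHX and 1424 and 1440.4 in NAA+DEX+CHX roots, against 891 and 896 in CHX and 774 and 940.1 in DEX+CHX roots. All arrays with NAA were above all arrays without it, and the change was 0.54 (1.46-fold, SE 0.11, adjusted p = 0.02). This call was lost in 7 of the 8 fits that left out 1 of these arrays, where adjusted p reached 0.075, and was kept without DEX+CHX replicate 2. Without CHX the rise was 9.34-fold, to a mean of 4343 ± 1001 against 443 ± 48.5, and the interaction was -2.68 (SE 0.15, adjusted p = 1e-06). Since the plants carry both a mutated LBD16 locus and the transgene, the source of this signal cannot be told apart.

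LBD29 had intensities of 809 and 714 in NAA+CHX and 456 and 547 in NAA+DEX+CHX roots, against 617 and 723 in CHX and 466 and 415 in DEX+CHX roots. The arrays with and without NAA overlapped in both DEX states, and the change was 0.18 (SE 0.13, adjusted p = 0.53). Without CHX LBD29 averaged 5171 ± 1422 with NAA and 229 ± 106 without it, a 22.3-fold rise, and CHX without NAA raised it by 1.3 (adjusted p = 3.9e-06). PUCHI encodes an AP2/ERF factor that acts in developing lateral root primordia. It measured 297 and 319 in NAA+CHX and 776 and 670.2 in NAA+DEX+CHX roots, against 276 and 291 in CHX and 793 and 673 in DEX+CHX roots. Its levels were higher in both groups with DEX, and within a state the arrays with and without NAA lay close together or overlapped. The NAA effect was 0.05 (SE 0.11, adjusted p = 0.88). In the absence of CHX that effect was 3.28 (SE 0.11, adjusted p = 4.3e-09), and the CHX effect without NAA was 2.33 (adjusted p = 4.3e-09).

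HAT2, an auxin-induced homeodomain-leucine zipper factor, was at 2359 ± 222 with NAA and CHX and 2226 ± 128 with CHX and no NAA, and its NAA effect was 0.08 with CHX and 0.97 without it. CLE44, which encodes a secreted peptide of the vascular stem cell niche, was at 122 to 169 with NAA and CHX and 138 to 183 with CHX and no NAA. Without CHX it measured 1430.1 to 1576 with NAA and 91.5 to 134 without it. CHX without NAA raised CLE44 by 0.51 (adjusted p = 0.0076 in limma), and its levels in CHX roots stayed far below those with NAA and no CHX. RTE1, a regulator of the ethylene receptor ETR1, and BRL1, a brassinosteroid receptor, gave -0.01 and 0.65 with CHX against 1.78 and 1.71 without it, and both interactions passed (adjusted p = 5.8e-05 and 0.037). That of BRL1 was lost in 13 of the 16 fits with an array left out, all but those without either DEX+CHX array or NAA+DEX+CHX replicate 1. WAG2, a kinase of auxin efflux carriers, gave -0.44 (SE 0.14, adjusted p = 0.11) with CHX.

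UGT84B1 encodes an enzyme that attaches glucose to auxin. It was the 1 of 6 measured genes of auxin synthesis and turnover that rose with CHX, against 1.86% of all probe sets. It had intensities of 281 and 321 in NAA+CHX and 441 and 537 in NAA+DEX+CHX roots, against 197 and 133 in CHX and 137 and 143 in DEX+CHX roots. The groups did not overlap, and the change was 1.26 (2.39-fold, SE 0.17, adjusted p = 0.0037). Without CHX its intensities were 2.57 to 15.7 with NAA and 1.34 to 5.55 without NAA, near the bottom of the scale, and the NAA effect was 0.18 (SE 0.17, adjusted p = 0.48). The rise was called in each of the 8 fits that left out 1 array and was lost with a pseudocount of 1 (adjusted p = 0.12). The YUC genes measured, which make auxin, did not pass with CHX: YUC2, YUC4, YUC6 and YUC11 gave 0.13, -0.21, 0.08 and -0.32.

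The probe sets with the strongest auxin response in roots without CHX were followed as a group into the roots with CHX, a comparison in which no array is shared. The 57 probe sets that NAA raised at least 8-fold without CHX had a median NAA effect of 0.09 with CHX, with values between -0.68 and 1.69, and 5 of them rose (8.77%, against 1.86% of all probe sets). LBD16 is 1 of these 5, and the other 4, the probe set with 1.69 included, have no gene in the probe annotation used here. The 27 probe sets lowered at least 8-fold without CHX had a median of -0.44 with CHX, and 10 of them fell (37.0%, against 1.77% of all probe sets), among them AT4G25250, AT5G04120 and AT3G01190, and AT5G02000, which was named after its value was seen.

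Of the 422 rises with CHX, 146 (34.6%, against 18.3% of all probe sets) also rose without CHX, which is 3.51% of the 4161 rises there, and 37 fell without CHX. Of the 402 falls with CHX, 279 (69.4%, against 12.2% of all probe sets) also fell without CHX, 10.1% of the 2776 falls there, and 22 rose. Whether the rises and falls differed in this was not tested, and the split of calls without CHX turned under median centring. Among the larger changes, 24 of the 71 rises of at least 2-fold with CHX also rose without it, with a median of 0.30 there. Of the 42 falls of at least 2-fold, 34 also fell without CHX, with a median of -1.15. The 2 lists share no array, but both tests use the same variance estimate for each probe set.

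None of the 15 largest rises of named genes with CHX was in the auxin lists, and for most of these genes the reference table gives a locus code and no name. AT2G20720 had intensities of 2330.4 and 2285 in NAA+CHX and 2952 and 3411 in NAA+DEX+CHX roots, against 715 and 586 in CHX and 545 and 418 in DEX+CHX roots. All arrays with NAA were above all without it, a 4.76-fold rise (2.25, SE 0.14, adjusted p = 4.9e-05). Without CHX the gene lay between 2.01 and 10.2 in mock and DEX roots and NAA changed it by -0.01. CHX without NAA raised it by 4.77, and NAA raised it further.

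This order of levels, near the bottom of the scale without CHX, raised by CHX and higher still with NAA and CHX, was seen in several of the 15 largest rises. AT4G21630 averaged 818 ± 143 with NAA and CHX and 203 ± 53.1 with CHX and no NAA, against 2.1 ± 1.28 with NAA and 2.74 ± 1.27 without NAA in the absence of CHX. AT3G54520 reached the highest level among them, with 7488 to 11016 with NAA and CHX, 2607 to 3574 with CHX and no NAA, and 1.08 to 6.91 in mock and DEX roots. Its change with CHX was 1.49 (SE 0.14, adjusted p = 0.00049). AT1G48980 was at 2494 ± 161 with NAA and CHX and 878 ± 332 with CHX and no NAA, and AT4G11730 at 789.7 ± 150.4 and 249 ± 38 in the same order. For AT4G11730 the NAA by CHX interaction was only 0.79, and it was -0.95 with a pseudocount of 1 (adjusted p = 0.23 in limma). A larger NAA effect with CHX is therefore not shown for AT4G11730.

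SEC1B, whose product belongs to the Sec1/Munc18 family of vesicle fusion proteins, was well above the bottom of the scale in every group. It measured 1535 and 1446 in NAA+CHX and 1602 and 1737 in NAA+DEX+CHX roots, against 678 and 496 in CHX and 613 and 515 in DEX+CHX roots. No array with NAA overlapped one without it, and the rise was 2.71-fold (1.44, SE 0.11, adjusted p = 0.00017). Without CHX it rose by 0.40 (adjusted p = 0.02), and the interaction of 1.04 passed (adjusted p = 0.0014).

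Of the other 9 named rises, AT4G24170 gave 1.99, AT2G26135 1.68, AT1G17960 1.63 and AT5G54095 1.55. AT5G24940, AT5G27220, AT5G44680 and AT4G27580 gave 1.52, 1.50, 1.45 and 1.45, and AT3G47260, a pseudogene in the reference table, 1.45. The call of AT3G47260 was lost in all 8 fits with an array left out, that of AT5G44680 in all but the fit without CHX replicate 1, and that of AT4G27580 without CHX replicate 2. That of AT1G17960 was lost without CHX replicate 2, DEX+CHX replicate 2, NAA+CHX replicate 1 or NAA+DEX+CHX replicate 2. With a pseudocount of 1 all of these calls were lost. Those of AT4G24170 and AT5G24940 were lost there too (adjusted p = 0.091 and 0.12 in limma). AT5G24940 moved in opposite directions, rising with CHX and falling without it (-0.61, adjusted p = 0.044). The NAA by CHX interaction passed for AT5G24940 (2.13, adjusted p = 0.00068), and since these genes were chosen by the effect with CHX that the interaction contains, it is given as a value. Over all probe sets the interaction called 3331 of 22746 (14.6%), with 1477 more positive (6.49%) and 1854 more negative (8.15%) with CHX. With median centring that split was 1793 and 1295.

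**Figure D3:**
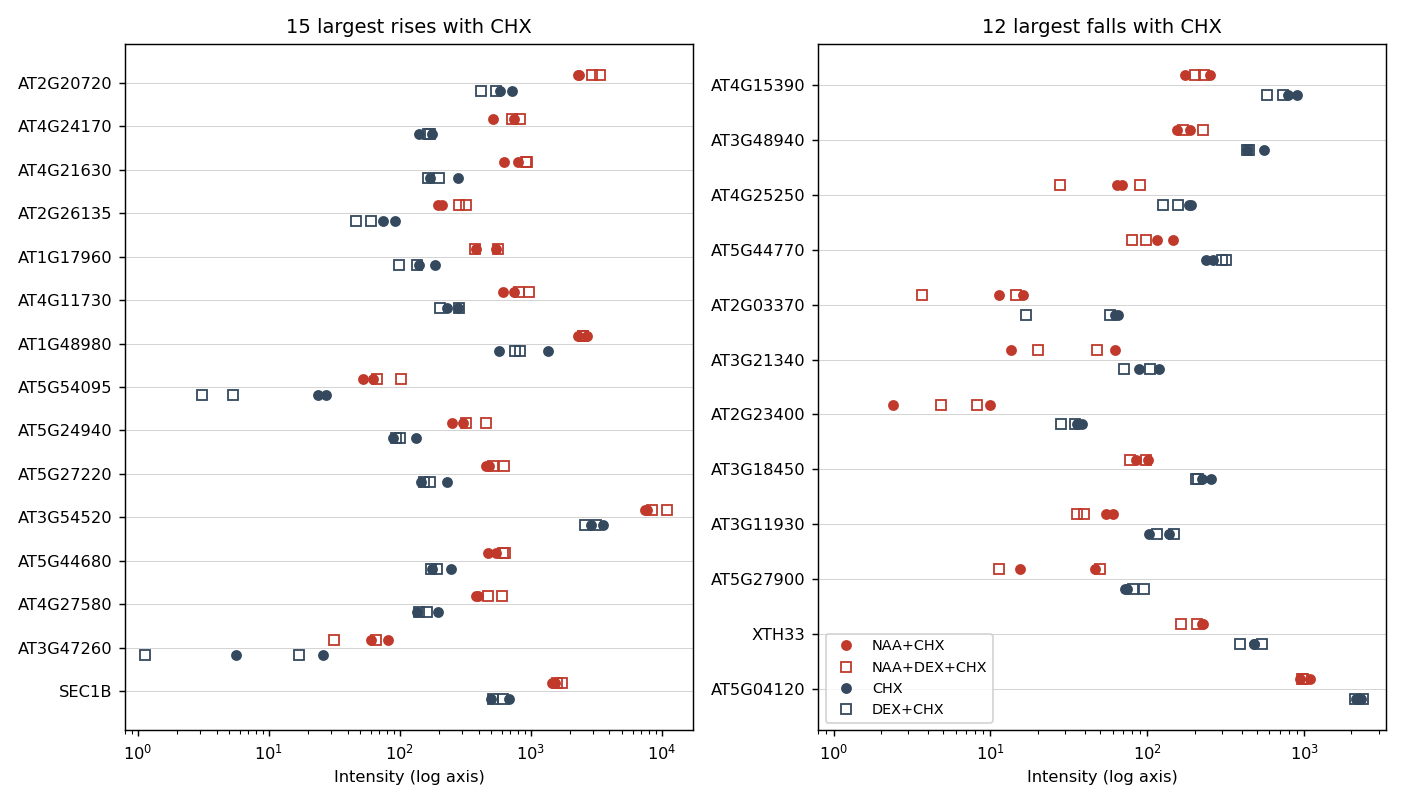
Intensity (log axis) of the 15 genes with the largest rises and the 12 with the largest falls with CHX, with 2 arrays a group: filled symbols without DEX, open symbols with DEX, red for NAA and blue-grey for no NAA. For AT2G20720 the red symbols run from 2285 to 3411 and the blue-grey symbols from 418 to 715, and for AT4G15390 the red symbols run from 175 to 253 and the blue-grey ones from 579 to 898.

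The largest fall of a named gene with CHX was that of AT4G15390. It measured 253 and 175 in NAA+CHX and 202 and 230.1 in NAA+DEX+CHX roots, against 792 and 898 in CHX and 735 and 579 in DEX+CHX roots. The ranges lay apart, and the gene was 3.31-fold lower with NAA (-1.73, SE 0.15, adjusted p = 0.00033). Without CHX it averaged 3109 ± 155 with NAA and 5468 ± 1212 without it, so that NAA and CHX each went with lower levels and the roots with both were lowest.

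For several of the 12 largest falls the values with and without CHX were close. AT3G48940 averaged 184 ± 31.4 with NAA and CHX against 465 ± 60.4 with CHX and no NAA, and its NAA effect was -1.27 with CHX and -1.0 without it. The interaction was -0.27 (adjusted p = 0.47). AT3G18450, AT3G11930 and AT3G21340 gave -1.17, -1.17 and -1.19 with CHX and -1.25, -1.19 and -1.22 without it. AT5G44770 and XTH33 gave -1.25 and -1.15 against -1.65 and -1.53. For none of these 6 did the interaction pass, which does not show that the effects were equal.

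For AT4G25250, AT2G03370 and AT5G04120 the fall was smaller with CHX than without it by a tested interaction. AT5G04120 averaged 997 ± 67.1 with NAA and CHX and 2224 ± 134 with CHX and no NAA, against 95 ± 29.6 with NAA and 1494 ± 412 without NAA in the absence of CHX. The NAA effect was -1.15 with CHX and -3.77 without it , and the interaction was 2.63 (SE 0.28, adjusted p = 0.00013). AT4G25250 gave -1.26 and -5.16, and AT2G03370 -1.21 and -2.70. AT2G23400 fell with CHX (-1.18) and rose without it (0.44, adjusted p = 0.024), with at most 38.4 intensity units on any array. AT5G27900, a pseudogene in the reference table, gave -1.15 with CHX. The calls of AT4G25250, AT3G21340 and AT5G27900 were each lost in 6 of the 8 fits with an array left out. They were kept without either NAA+DEX+CHX array for AT4G25250, without NAA+CHX replicate 1 or NAA+DEX+CHX replicate 2 for AT3G21340, and without NAA+CHX replicate 2 or NAA+DEX+CHX replicate 2 for AT5G27900. The call of AT2G03370 was lost without CHX replicate 2, NAA+CHX replicate 1 or NAA+DEX+CHX replicate 2, and that of AT5G04120 without NAA+CHX replicate 2.

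XTH enzymes cut and rejoin xyloglucan in the wall, and of 10 measured XTH genes 0 rose and 2 fell with CHX, with a list median of 0.04, beside 1.86% rises and 1.77% falls over all probe sets. XTH33 measured 225 and 223 in NAA+CHX and 163 and 207 in NAA+DEX+CHX roots, against 480.5 and 479 in CHX and 539.6 and 388 in DEX+CHX roots. The arrays with NAA were all lower, and the fall was 2.21-fold (SE 0.14 on the log2 scale, adjusted p = 0.0029). XTH16 averaged 950.03 ± 21.2 with NAA and CHX against 1478 ± 164 with CHX and no NAA, a change of -0.62 (SE 0.11, adjusted p = 0.012) that was lost without CHX replicate 2 or DEX+CHX replicate 2. Without CHX its fall was larger (-2.80, interaction adjusted p = 6.6e-06). XTH21, with an NAA effect of -4.10 without CHX, gave -0.34 (SE 0.16, adjusted p = 0.3) with it.

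Expansins loosen walls during growth, and 19 were measured, of which 0 rose and 2 fell with CHX (median -0.16, against 1.77% falls over all probe sets). These were EXPA7 and EXPA18, both known from root hair cells. EXPA7 measured 745 and 721 in NAA+CHX and 598 and 667 in NAA+DEX+CHX roots, against 1032 and 1306 in CHX and 972 and 1008 in DEX+CHX roots. All arrays with NAA were below all without it, with a change of -0.64 (SE 0.11, adjusted p = 0.01). Without CHX its NAA effect was 0.05 (adjusted p = 0.79), and the interaction of -0.69 passed (adjusted p = 0.013). EXPA18 was at 635 ± 77.8 with NAA and CHX and 896 ± 91 with CHX and no NAA, a change of -0.49 (SE 0.11, adjusted p = 0.042). This call was kept without CHX replicate 1 or NAA+DEX+CHX replicate 2 and lost in the other 6 fits with an array left out. These genes are also 2 of the 4 root markers whose sum was lower with NAA and CHX, and the other markers, AGL21 and SCN1, gave 0.17 and -0.02 without passing. The auxin-raised expansin EXPA4 gave -0.16 with CHX against 1.24 without it.

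Of 39 measured glutathione transferases, UGT glucosyltransferases and aldehyde dehydrogenases, 3 rose and 2 fell with CHX (median 0.04), beside 1.86% rises and 1.77% falls over all probe sets. The glucosyltransferase genes UGT73B4 and UGT73B5 lie in a family that answers stress and foreign compounds. UGT73B5 measured 2615 and 2338 in NAA+CHX and 2749 and 2185 in NAA+DEX+CHX roots, against 1229 and 1224 in CHX and 1509 and 1236 in DEX+CHX roots. The groups did not overlap, and the rise was 1.89-fold (SE 0.14 on the log2 scale, adjusted p = 0.007). UGT73B4 rose by 0.85 with CHX and 0.89 without it, from different baselines: it averaged 4901 ± 522 with NAA and CHX and 2721 ± 301 with CHX and no NAA, against 609 ± 79.9 with NAA and 323 ± 50.1 without NAA in the absence of CHX.

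The glutathione transferase gene GSTF4 rose by 0.73 (SE 0.13, adjusted p = 0.012) with CHX and gave 0.05 without it. GSTU26 and GSTU28 fell with CHX by 0.78 and 0.62 on the log2 scale, and more without it (-1.66 and -2.80), with interactions that passed (adjusted p = 0.03 and 6.7e-05). With an array left out, the call of GSTU28 was lost in all 8 fits, that of GSTU26 in all but the fit without DEX+CHX replicate 1 (its interaction in 10 of 16), and that of GSTF4 in the fit without CHX replicate 2.

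GTR1 and GTR2, which import glucosinolates into cells, both fell with CHX. GTR1 measured 1220.01 and 1390.2 in NAA+CHX and 898 and 982 in NAA+DEX+CHX roots, against 1666 and 2198 in CHX and 1738 and 2321 in DEX+CHX roots. The ranges of the groups did not overlap, and the change was -0.82 (SE 0.12, adjusted p = 0.006). GTR2 averaged 2675 ± 304 with NAA and CHX against 3756 ± 407 with CHX and no NAA, and changed by -0.49 (SE 0.10, adjusted p = 0.023), a call kept without CHX replicate 1 or DEX+CHX replicate 2 and lost in the other 6 fits. They make up both falls among 4 measured glucosinolate genes (median -0.45) and both falls among 12 measured genes of the nitrate and phosphate transport list (median -0.07, 0 rises), to which they belong by sequence family, beside 1.77% falls over all probe sets. The glucosinolate enzyme genes BCAT4 and UGT74B1 gave -0.42 and -0.39 with CHX without passing, and fell by 2.1 and 1.75 on the log2 scale without it.

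**Figure D4:**
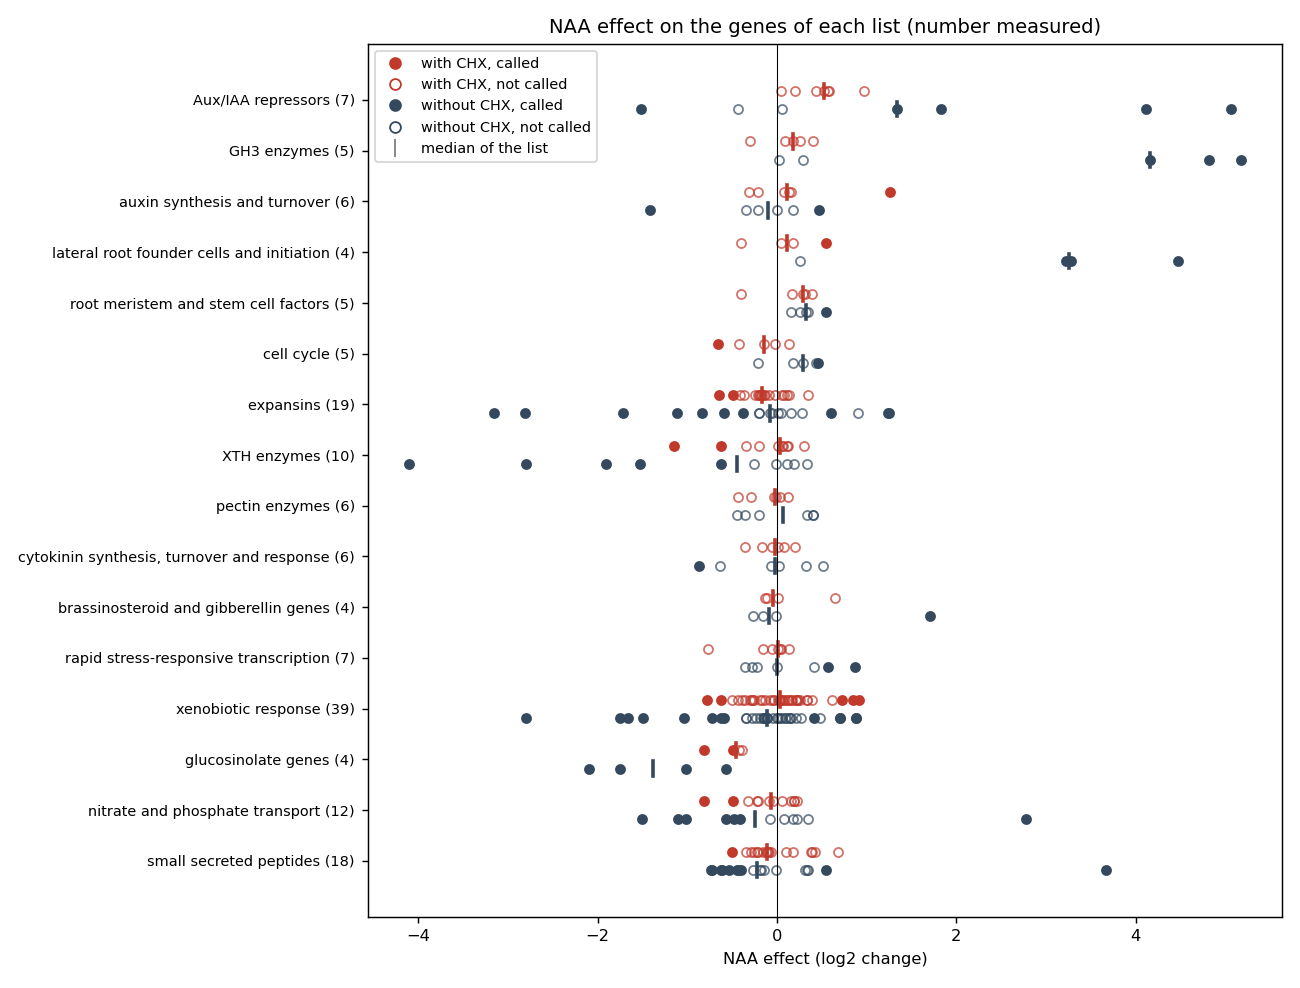
NAA effect (log2 change) of each measured gene of the lists with 4 or more measured genes, with CHX in red and without CHX in blue-grey, filled where the test was passed, and with the list median as a short bar. The red points stay between -1.15 for XTH33 and 1.26 for UGT84B1, while the blue-grey points reach -4.10 for XTH21 and 5.17 for GH3.3.

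SIM (SIAMESE), an inhibitor of cyclin-dependent kinases, was the 1 of 5 measured cell cycle genes that fell with CHX (median -0.15, 0 rises, against 1.77% falls over all probe sets). It measured 378 to 463 with NAA and CHX and 611 to 731 with CHX and no NAA, ranges that lay apart, with a change of -0.66 (SE 0.13, adjusted p = 0.017). The call was lost without CHX replicate 2, DEX+CHX replicate 1, NAA+CHX replicate 2 or NAA+DEX+CHX replicate 1. Of 18 measured small secreted peptide genes 0 rose and 1 fell. That gene, RALFL27, gave -0.50 (SE 0.12, adjusted p = 0.042) and lost its call in all 8 fits with an array left out. Of 5 root meristem and stem cell factors 0 passed (median 0.29), beside 3.62% of all probe sets. BBM, an AP2 factor of the meristem, gave 0.29 and the zinc finger factor JKD 0.32.

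None of 6 pectin enzyme genes, 6 cytokinin genes, 4 brassinosteroid and gibberellin genes, 2 ethylene genes and 2 auxin transport genes passed with CHX. The list medians were -0.02, -0.02, -0.05, -0.07 and -0.33, and 3.62% of all probe sets passed. The reference table holds 34, 74, 56, 38 and 39 genes of these lists, so the counts describe only the few genes measured. The 7 measured genes of rapid stress-responsive transcription also gave 0 calls, with a median of 0.02. In that list STZ, a zinc finger repressor, gave 0.04 with CHX and rose by 0.87 without it, and CHX without NAA raised all 7, STZ by 7.49. Over all probe sets CHX without NAA changed 13407 (58.9%), with 6323 rises (27.8%) and 7084 falls (31.1%). No gene of the SAUR, ARF and auxin receptor lists and none of the abscisic acid and jasmonate list had a probe set with a listed gene, so these lists were not analysed here.

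Taken by DEX state, NAA+CHX against CHX gave 38 calls (0.167%), with 19 rises (0.0835%) and 19 falls (0.0835%), and NAA+DEX+CHX against DEX+CHX gave 268 (1.18%), with 146 rises (0.642%) and 122 falls (0.536%). The test of the difference, the NAA by DEX interaction with CHX, called 0 probe sets in limma. An unadjusted p under 0.05 was found for 1067 of 22746, a share that is itself below 0.05. The unequal counts are therefore not shown to be a difference between the states. The 2 comparisons share no array. Of the rises, 16 were called in both, 84.2% of the 19 and 11% of the 146, and of the falls 17, 89.5% of the 19 and 13.9% of the 122. AT2G20720 gave 1.81 without DEX and 2.69 with it (adjusted p = 0.0066 and 0.00029), SEC1B 1.34 and 1.54, and AT4G15390 -1.93 and -1.53. The change of LBD16 was 0.35 without DEX (adjusted p = 0.38) and 0.74 with it (adjusted p = 0.045), and its NAA by DEX interaction of 0.39 did not pass. The 38 became 3, 4, 18 and 25 without CHX replicate 2, NAA+CHX replicate 2, NAA+CHX replicate 1 and CHX replicate 1. The 268 became 18, 21, 29 and 41 without DEX+CHX replicate 2, DEX+CHX replicate 1, NAA+DEX+CHX replicate 2 and NAA+DEX+CHX replicate 1.

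The 8 named genes with the most negative NAA by CHX interaction all rose without CHX and did not pass the test with CHX. Besides GH3.3, GH3.1, LBD29 and IAA29 these were AT1G73610, AT2G23060, AT4G37290 and AT2G19970. AT4G37290 stood at 7051 ± 1577 with NAA and CHX and 6833 ± 1154 with CHX and no NAA, against 1124 ± 579 with NAA and 44.2 ± 12.9 without NAA in the absence of CHX. AT2G19970 showed the reverse order, at 1.04 to 2.26 with NAA and CHX and 1.67 to 5.97 with CHX and no NAA, against 2394 to 6890.4 with NAA and 161 to 284 without NAA in the absence of CHX. The NAA effect with CHX was 0.03 for AT4G37290 and -0.11 for AT2G19970, although CHX without NAA changed them by 6.84 and -3.74. An NAA effect that did not pass with CHX thus stood beside high levels in CHX roots for GH3.3, GH3.1, IAA30 and AT4G37290 and beside levels at the bottom of the scale for AT2G19970. It stood beside neither for other auxin-raised genes. For RTE1 and IAA18 the CHX effect without NAA did not pass in limma (-0.15 and 0.26, adjusted p = 0.33 and 0.18). WES1 and LBD29 in CHX roots lay, by their means, between the levels with and without NAA in the absence of CHX. The causes were not tested.

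The 8 named genes with the most positive interaction fell without CHX. AT3G01190 was at 3143 to 3282 with NAA and CHX and 4489 to 5228 with CHX and no NAA, ranges that did not overlap, and its fall of 0.57 on the log2 scale passed (adjusted p = 0.017) but was lost in all fits with an array left out except that without CHX replicate 1. Without CHX it measured 275 to 384 with NAA and 3372 to 4795 without it, a 12.8-fold fall. AT1G06830 averaged 2228 ± 299.6 with NAA and CHX and 1771 ± 231 with CHX and no NAA, against 58.5 ± 35.9 with NAA and 442 ± 138 without NAA in the absence of CHX. AT3G45680, AT4G30450, AT2G43890 and AT1G19900 were lowered without CHX (-3.81, -3.36, -3.13 and -3.58) and gave 0.96, -0.15, 0.04 and -0.31 with CHX. These 4 were already low in CHX roots that had no NAA, with means of 13.5, 53.7, 5.38 and 121, against 909, 2541, 158 and 468 in mock and DEX roots.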

How the data were processed

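Transcripts of Arabidopsis roots were measured on 16 single-channel arrays, 2 in each of 8 groups taken from the sample titles. The deposited values are 1 linear intensity per probe set and array, made by the authors with Affymetrix Expression Console 1.3, per the submitters' processing notes. The summary method, background correction and scaling are not given in the sources used here. All arrays shared 1 trimmed mean over probe sets, which shows a scaling of each array before deposit. The number of arrays limits the precision.

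Of 22810 probe sets, 64 controls were removed and 22746 tested without a filter. In the probe annotation, 13513 had 1 gene, 503 several and 8730 none listed. Values were analysed as log2 of the deposited intensity plus 16 in limma 3.58.1 (R 4.3.3), with 1 group-means model of all 16 arrays, lmFit, contrasts and eBayes. Tests were two-sided, with Benjamini-Hochberg adjustment over all probe sets and a threshold of 0.05. The procedure was tested on simulated data. Changes and SEs are on this log2 scale, and the SDs are of intensities.

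The comparison, its gene lists and its naming rule were chosen with earlier results of these data known. The rule took the 15 largest rises and 12 largest falls with CHX among called probe sets of 1 gene with arrays separate in both DEX states. It also took the 8 most positive and 8 most negative NAA by CHX interactions, up to 4 NAA by DEX interactions of each sign (none was called), and LBD16, LBD29 and PUCHI. From each list it took up to 5 called genes, or up to 2 as values where none was called. A gene with several probe sets was represented by that of highest mean log2 value. AT5G02000, AGL21, BBM, BCAT4, CLE44, EXPA4, GH3.9, GH3.17, IAA18, IAA30, IAA33, SCN1, STZ, UGT74B1 and the YUC genes were named outside it, after their values were seen. Same-numbered arrays deviated from their group means with correlations of -0.06 to 0.07 over 28 pairs of groups, so the numbers were not treated as pairs. The alternatives were other pseudocounts, scalings, a filter, priors, array weights, a replicate block, fits of fewer arrays and leaving out each array.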

Additional observations from a re-analysis of the deposited data

Results flagged for a closer look

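The NAA effect differed between roots with and without CHX for 3331 probe sets, by the NAA by CHX interaction in limma. The values below are the NAA effect with CHX minus that without CHX on the log2 scale, for the genes named in the text whose interaction passed at an adjusted p under 0.05. The causes were not tested. With an array left out, the interactions of BRL1 and IAA20 were each lost in 13 of 16 fits, those of STZ, WAG2 and YUC11 in 12, GSTU26 in 10, GTR2 in 9, and GSTF4 and UGT73B5 in 8.

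Positive differences mean a larger rise with CHX, a smaller fall, or no change or a rise in place of a fall. They were 4.76 for AT3G45680, 3.90 for AT4G25250, 3.76 for XTH21, 3.27 for AT1G19900, 3.21 for AT4G30450, 3.17 for AT2G43890, 3.1 for AT3G01190, 3.02 for AT1G06830 and 2.63 for AT5G04120. Next came 2.56 for AT4G24170, 2.26 for AT2G20720, 2.26 for AT5G02000, 2.18 for XTH16, 2.17 for GSTU28, 2.13 for AT5G24940, 2.09 for IAA33, 1.99 for AT4G21630 and 1.81 for AT5G54095. Then came 1.76 for AT1G48980, 1.68 for BCAT4, 1.63 for AT2G26135, 1.5 for YUC6, 1.49 for AT2G03370, 1.44 for AT4G27580, 1.36 for UGT74B1, 1.26 for AT5G27220 and 1.08 for UGT84B1. There followed 1.07 for AT3G54520, 1.04 for SEC1B, 0.88 for GSTU26, 0.79 for AT4G11730, 0.78 for UGT73B5, 0.68 for GSTF4, 0.67 for WAG2 and 0.53 for GTR2. 

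Negative differences were largest for auxin-raised genes of the GH3, LBD and Aux/IAA families and some genes known by locus code. The values were -4.77 for GH3.3, -4.73 for GH3.1, -4.63 for AT1G73610, -4.30 for LBD29, -4.22 for AT2G23060, -4.09 for IAA29, -4.08 for AT4G37290, -4.07 for AT2G19970 and -3.92 for IAA30. Next were -3.90 for WES1, -3.76 for CLE44, -3.24 for PUCHI, -2.68 for LBD16, -1.80 for RTE1, -1.78 for IAA18, -1.61 for AT2G23400, -1.41 for EXPA4 and -1.06 for BRL1. The smallest were -0.95 for AT4G15390, -0.89 for HAT2, -0.84 for SIM, -0.83 for STZ, -0.79 for YUC11, -0.76 for IAA20 and -0.69 for EXPA7.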

How the results depend on the processing

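The counts of NAA calls with CHX moved with several choices, and for these the cause was not tested. Pooled over DEX, the 824 calls became 1553 with a pseudocount of 64, 1357 with the filter on low values and 1548 under a robust prior with an intensity trend, and 304 to 660 with 1 array left out. The 8 CHX arrays with additive terms gave 782. Without DEX the 38 became 14 and 262 with pseudocounts of 1 and 64, 286 with the filter, 301 with the trend, 100 with array weights, 0 when only the compared arrays were fitted in limma (2627 at an unadjusted p under 0.05, with fewer residual degrees of freedom) and 3 to 25 with 1 array left out. With DEX the 268 became 132 and 600, 505, 611, 406 and 0 in limma (2904 unadjusted) under the same settings, and 18 to 41 with 1 array left out. The NAA by DEX interaction, with 0 calls, gave 1 with the filter, 2 with the trend and 0 to 1 with 1 array left out. The 6937 calls without CHX, the 3331 of the NAA by CHX interaction and the 13407 of the CHX effect stayed within 1.5 times under every setting. With 1 array left out they ran from 5695 to 7098, from 2518 to 3758 and from 12721 to 13099. Of the 55 named genes called with CHX, 23 kept the call under every setting and 27 in all fits with an array left out. Of the 60 named genes whose NAA by CHX interaction passed, 47 kept the call under every setting and 51 in all fits with an array left out. With a pseudocount of 1 the interaction of AT4G11730 turned to -0.95 (adjusted p = 0.23), and those of AT3G54520, AT4G27580 and UGT84B1 lost their calls. Median centring lowered the median effect by 0.11 without CHX and by 0.18 for the CHX effect. Signal near the bottom of the scale limits the folds of low genes.

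With the replicate number as a block, the counts were 682 pooled with CHX, 30 without DEX, 183 with DEX, 0 for the NAA by DEX interaction, 6712 without CHX, 3111 for the NAA by CHX interaction and 13348 for the CHX effect. The numbers do not pair the arrays, since the correlations of same-numbered deviations lay between -0.06 and 0.07.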

Other observations

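Some gene families outside the lists also held members that changed with CHX, and they were chosen after their values were seen. TBL genes encode trichome birefringence-like proteins, many of which acetylate wall polysaccharides. Of 22 measured, 2 rose and 4 fell with NAA in the presence of CHX, with a median of -0.11. TBL37 fell by 0.70 on the log2 scale (adjusted p = 0.0045), averaging 1352 ± 117 with NAA and CHX and 2203 ± 146 with CHX and no NAA (SD, n = 4). TBL38, TBL39 and TBL41 gave -0.49, -0.41 and -0.61, and the rises were TBL42 with 1.02 and TBL21 with 0.41. The arrays of TBL41 overlapped with DEX, where its change was -0.25, against -0.97 without DEX. TBL42 was low, at 10.6 to 39.7 with CHX and no NAA. Without CHX, TBL21 fell with NAA instead when pooled over DEX (-0.73, adjusted p = 0.00024 in limma), mostly through the state without DEX. It measured 121 and 131 in NAA against 296 and 378 in mock roots, but 288 and 300 in NAA+DEX against 306 and 358 in DEX roots. TBL37, TBL38, TBL39, TBL41 and TBL42 gave -0.80, -1.68, -0.79, -0.40 and 0.39 without CHX. TBL37 kept its call in every fit with an array left out. TBL21 lost it in all 8. TBL39 kept it only without NAA+CHX replicate 1 and TBL41 only without NAA+DEX+CHX replicate 2. TBL38 kept it without CHX replicate 1, NAA+CHX replicate 2 or NAA+DEX+CHX replicate 2, and TBL42 without CHX replicate 2, DEX+CHX replicate 1 or NAA+CHX replicate 1.

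Of 14 measured SWEET genes, which encode sugar transporters, SWEET13 fell (-0.56, adjusted p = 0.0097) and SWEET8 rose (0.96, adjusted p = 0.032), with a family median of 0.05. SWEET13 measured 391 to 612 with NAA and CHX and 644 to 787 with CHX and no NAA, and kept its call in every fit with an array left out, while SWEET8 lost its call in all 8. Of 20 beta-glucosidase (BGLU) genes, 2 rose and 0 fell (median 0.12). These were BGLU33 with 0.81, kept only without NAA+DEX+CHX replicate 1, and BGLU46 with 0.55, lost in all 8. Of 29 serine carboxypeptidase-like genes, 0 rose and 2 fell (median -0.09). These were scpl40 with -0.60, kept throughout, and SCPL34 with -0.37, lost in all 8. Without CHX the NAA effect was -1.16 for SWEET13, -0.14 for SWEET8, 0.73 for BGLU33, 0.52 for BGLU46, -2.30 for scpl40 and -0.86 for SCPL34. The background with CHX was 1.86% rises and 1.77% falls of all probe sets.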
